A study of Mus musculus with 3 samples.

Results

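Intracisternal A particles (IAPs) are mouse endogenous retroviruses of the class that repeat catalogues call ERV2. They were examined here through 40 consensus sequences, which are the rows of the 3 read-count tables whose names begin with REPBASE_ and contain IAP. They were taken from 1564 repeat consensus sequences and 50407 named sequences in all. By name, 10 of the 40 are internal sequences of 3574 to 7747 bases, 26 are long terminal repeats (LTRs) of 292 to 492 bases, and 4 carry neither mark. Of the 40, 32 are mouse sequences, 4 are from rat and 4 from hamsters.

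The series compared polyadenylated RNA of mouse embryonic stem cells (ESCs) of 3 genotypes: wildtype (clone WT26), DAXX-/- (clone KO2-3) and ATRX-/- (clone KO1-44). All were male, isogenic and of the C57BL/6x129sV background, and the knockouts came from CRISPR targeting. The cells grew in serum with leukaemia inhibitory factor, first on irradiated feeder cells and then on gelatin. Each genotype was 1 clone with 1 library, so genotype and clone cannot be told apart and no difference has a replicate check.

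An IAP provirus has an internal region that encodes the Gag, protease and polymerase proteins of a retrovirus, between a pair of identical LTRs. The LTR holds the promoter and the polyadenylation signal, so a full transcript starts in the first LTR and ends in the other. IAP particles bud into the endoplasmic reticulum, and most copies lack an envelope gene. In ESCs the copies are held silent by KRAB zinc finger proteins that recruit TRIM28 and the histone methyltransferase SETDB1, and by DNA methylation. DAXX is a chaperone of the histone variant H3.3, and with the remodelling enzyme ATRX it places H3.3 at such elements.

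Depth was similar across libraries: transcript rows took 13981915 reads in wildtype, 11224100 in DAXX-/- and 13988376 in ATRX-/-. All levels below are CPM, the counts per 1000000 of these reads, and levels of different sequences are compared only per kilobase (RPKM, CPM divided by the length in kilobases). The log2 folds carry, in parentheses, a 95% interval that covers counting error alone. A sequence is said to rise or fall when that whole interval lies beyond 2-fold and the level is at least 1 CPM in at least 1 of the 2 libraries. The ESC label was checked with 8 pluripotency genes, such as Pou5f1 and Nanog, whose summed level was 5558 CPM in wildtype, 5572 in DAXX-/- and 5754 in ATRX-/-. Of the genes named in the labels, Atrx (chromosome X, 105797615 to 105929403, minus strand, GRCm38) had 4582 reads in wildtype, 3576 in DAXX-/- and 1800 in ATRX-/-. Daxx (chromosome 17, 33909414 to 33915590, plus strand) had 1125, 623 and 972 reads, so each gene was lowest in its own knockout, with log2 folds of -1.35 (-1.43 to -1.27) for Atrx in ATRX-/- and -0.54 (-0.68 to -0.39) for Daxx in DAXX-/-. Both knockouts are compared with the same wildtype library, so anything particular to that library enters both comparisons.

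IAP RNA rose in both knockouts, and further in DAXX-/-. The 40 sequences together took 3549 reads in wildtype, 9500 in DAXX-/- and 8181 in ATRX-/-, or 254, 846 and 585 CPM. The log2 fold against wildtype was 1.74 (1.68 to 1.79) in DAXX-/- and 1.20 (1.15 to 1.26) in ATRX-/-. Without IAPEZI, the member with most reads, the ATRX-/- value was 1.06 and did not pass the rule. IAP sequences held 3.58% of all repeat reads in wildtype, 8.46% in DAXX-/- and 7.48% in ATRX-/-. Nearly all of the added reads fell on 4 sequences: the internal sequences IAPEZI and IAPLTR1a_I_MM, the LTR RLTR1IAP_MM, and IAPA_MM, a 334-base sequence with the length of an LTR. These 4, singled out after their values were seen, went from 3179 reads to 9091 and 7837. The other 36 had 370 reads in wildtype, 409 in DAXX-/- and 344 in ATRX-/-, with log2 folds of 0.46 (0.26 to 0.67) and -0.11 (-0.32 to 0.11).

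**Figure D1:**
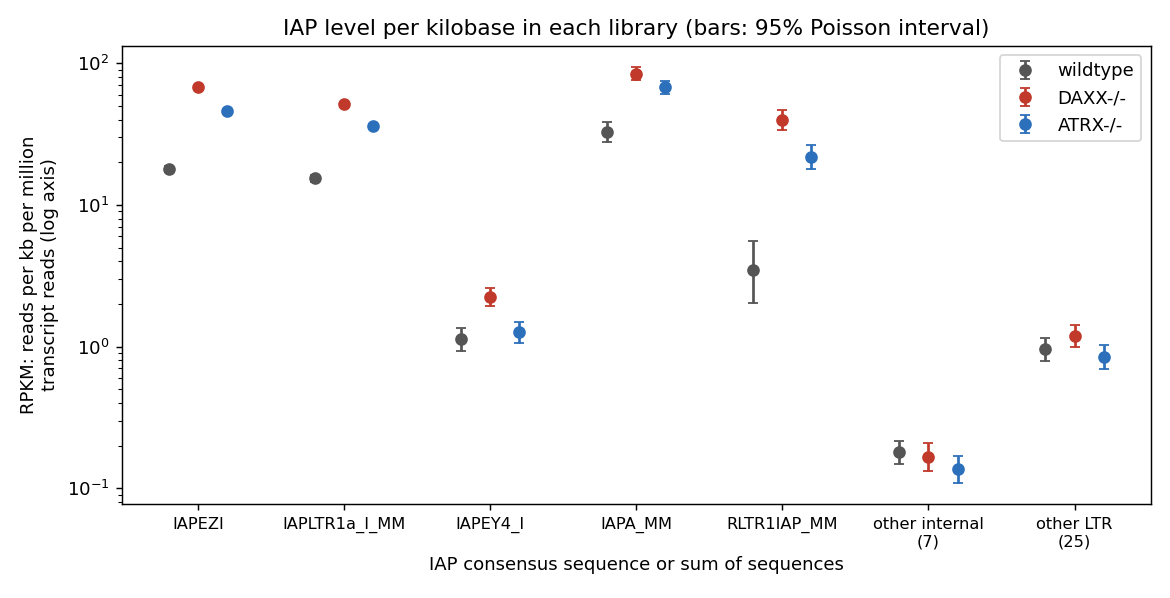
Level of IAP sequences in each library, in reads per kilobase and 1000000 transcript reads (RPKM) on a log axis, for the 5 sequences with at least 100 reads in a library and for the sums of the other internal sequences and other LTRs; bars are 95% Poisson intervals. IAPEZI, IAPLTR1a_I_MM, IAPA_MM and RLTR1IAP_MM are lowest in wildtype and highest in DAXX-/-, while the sum of the other 7 internal sequences is highest in wildtype. The length of the other LTRs includes rat and hamster LTRs without reads.

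Markers of other cell types differed between the libraries too. Feeder fibroblast genes (9 listed, among them Col1a1 and Thy1) summed to 29.3 CPM in wildtype, 7.31 in DAXX-/- and 13.01 in ATRX-/-. Lum was at 0 reads in every library, and Col3a1, Postn and Dcn were at 0 in both knockouts. Primitive and definitive endoderm genes (10 listed) summed to 334, 74.4 and 176 CPM, and Sox17 was at 0 in DAXX-/-. Trophoblast genes (9 listed) summed to 90.04, 35.3 and 61.6 CPM, with Elf5 at 0 in wildtype and ATRX-/-, Cdx2 at 0 in wildtype and Hand1 at 0 in DAXX-/-. Krt8 alone held 44.0 of the 90.04 CPM in wildtype. Cdx2 had 3 reads in DAXX-/- and 13 in ATRX-/-. Eomes had 68, 53 and 63 reads, or 4.86, 4.72 and 4.50 CPM, and the intervals of its log2 folds against wildtype include 0. Scaled to depth, neither of these trophoblast genes was lowest in DAXX-/-. Of the genes tested, 5 of 5 feeder, 10 of 10 endoderm and 2 of 6 trophoblast genes fell in DAXX-/-, and 1 of 5, 3 of 10 and 1 of 6 fell in ATRX-/-. Over all genes tested 1.9% fell in DAXX-/- and 1.29% in ATRX-/-. Set against DAXX-/-, the endoderm genes Gata4, Gata6, Sox17, Pdgfra, Cubn, Dab2 and Amn reached 1 CPM only in wildtype. So did the feeder genes Col1a2 and Acta2. Against ATRX-/- the same held for Sox17, Pdgfra, Col1a2 and Acta2. Genes tested through wildtype alone could be called lower in the knockout but not higher. As sums, all 3 lists were thus lowest in DAXX-/-, where IAP reads were highest. Their part in the IAP values was not tested. In bulk RNA, a change in the number of cells that transcribe IAPs and a change in RNA per cell cannot be told apart.

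By the 2-fold rule, 4 of 18 IAP sequences tested rose in DAXX-/- and 0 fell. Across all repeat sequences 5.08% rose (6 of 118) and 0.0% fell, and across genes 0.387% rose and 1.9% fell. Among repeats other than IAP 2.0% rose (2 of 100) and 0.0% fell. These were RLTR4I_MM, an internal sequence related to murine leukaemia virus, and the satellite GSAT_MM. In ATRX-/-, 3 of 15 IAP sequences tested rose and 0 fell, against 2.65% of all repeats that rose (3 of 113) and 0.885% that fell, and 0.609% and 1.29% of genes. Among repeats other than IAP 0.0% rose and 1.02% fell. The 3 repeats that rose in ATRX-/- were all IAP sequences: RLTR1IAP_MM, IAPEZI and IAPLTR1a_I_MM. The median log2 fold over the IAP sequences tested was 0.22 in DAXX-/- and -0.00067 in ATRX-/-, beside 0.07 and -0.59 over all repeats tested. Of the 18 tested in DAXX-/-, 3 reached 1 CPM only in DAXX-/- and 5 only in wildtype, whereas in ATRX-/- 0 reached it only in the knockout and 5 only in wildtype.

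**Figure D2:**
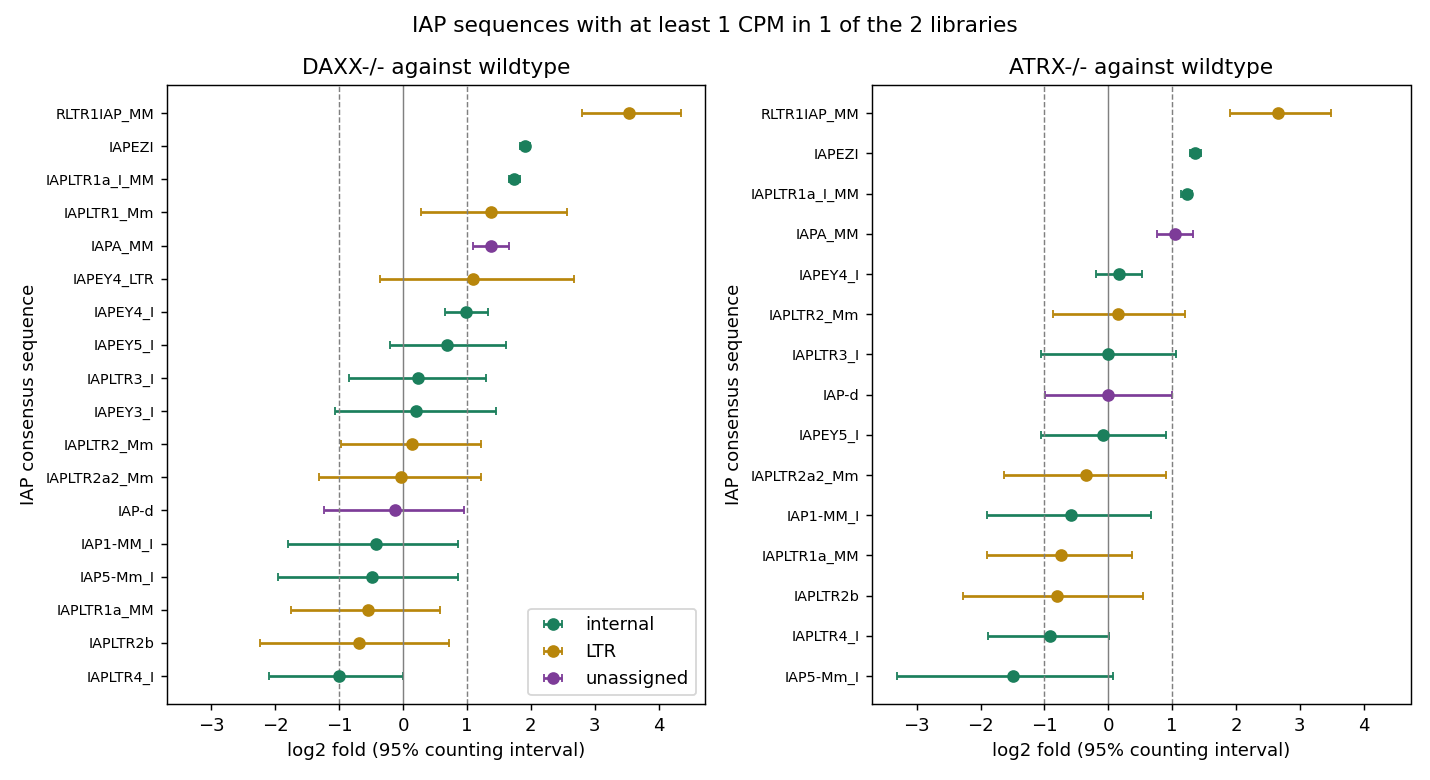
Log2 fold against wildtype of each IAP sequence with at least 1 CPM in 1 of the 2 libraries compared, with its 95% counting interval, coloured by class; dashed lines mark 2-fold. RLTR1IAP_MM, IAPEZI and IAPLTR1a_I_MM lie wholly beyond 2-fold in both panels, IAPA_MM only in DAXX-/-, and most sequences with few reads have wide intervals that include 0.

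The internal sequences carried 91.3% of IAP reads in wildtype, 93.6% in DAXX-/- and 93.3% in ATRX-/-. Summed over the 10, they had 3241, 8891 and 7634 reads, with log2 folds of 1.77 (1.71 to 1.83) in DAXX-/- and 1.24 (1.18 to 1.30) in ATRX-/-. IAPEZI, the internal region of the IAPEz group to which young full-length copies belong, took the most reads of the 40, with 1614 reads in wildtype, 4862 in DAXX-/- and 4151 in ATRX-/-. Scaled to depth, that is 115, 433 and 297 CPM, which makes both knockouts higher than wildtype and DAXX-/- the highest. IAPEZI rose by a log2 fold of 1.91 (1.83 to 1.99) in DAXX-/- and 1.36 (1.28 to 1.45) in ATRX-/-. Among the 1564 repeats, ranked per kilobase, it was at rank 23 in wildtype and rank 8 in each knockout.

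IAPLTR1a_I_MM, the internal sequence that the catalogue pairs by name with the LTR IAPLTR1a_MM, had 1395, 3753 and 3263 reads. Its level was 99.8 CPM in wildtype, 334 in DAXX-/- and 233 in ATRX-/-, the same order as for IAPEZI. It rose by 1.74 (1.66 to 1.83) in DAXX-/- and 1.23 (1.13 to 1.32) in ATRX-/-. The ratio of IAPEZI reads to IAPLTR1a_I_MM reads was 1.16 in wildtype, 1.30 in DAXX-/- and 1.27 in ATRX-/-. The split between them moved towards IAPEZI by 0.16 (0.04 to 0.28) on the log2 scale in DAXX-/- and 0.14 (0.01 to 0.26) in ATRX-/-, far less than either changed in level. Reads that fit both sequences equally well can be placed on either, so their sum is given too. That sum went from 3009 reads to 8615 and 7414.

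IAPEY4_I was the only other internal sequence with at least 100 reads. It had 121 reads in wildtype, 193 in DAXX-/- and 136 in ATRX-/-, or 8.65, 17.2 and 9.72 CPM. DAXX-/- stood above the other two libraries, which differed little from each other. The log2 fold was 0.99 (0.66 to 1.33) in DAXX-/-, short of the rule, and 0.17 (-0.20 to 0.53) in ATRX-/-. Per kilobase IAPEY4_I reached 1.13 RPKM in wildtype and 2.24 in DAXX-/-, against 18.1 and 67.8 RPKM for IAPEZI.

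The other 7 internal sequences together had 111 reads in wildtype, 83 in DAXX-/- and 84 in ATRX-/-. Their summed log2 fold was -0.10 (-0.53 to 0.32) in DAXX-/- and -0.40 (-0.83 to 0.02) in ATRX-/-, and both intervals include 0. IAPLTR4_I had 30, 12 and 16 reads, with log2 folds of -1.005 (-2.11 to 0.0032) and -0.91 (-1.88 to 0.01), intervals that just include 0. IAPEY5_I had 20, 26 and 19 reads, IAPLTR3_I 17, 16 and 17, and IAP1-MM_I 15, 9 and 10. IAP5-Mm_I had 14, 8 and 5 reads, IAPEY3_I 13, 12 and 11, and IAPEYI 2, 0 and 6. None of these 7 passed the rule in either knockout, and IAPEYI stayed under 1 CPM throughout. Without IAPEZI and IAPLTR1a_I_MM, the 8 internal sequences left had log2 folds of 0.57 (0.31 to 0.83) in DAXX-/- and -0.077 (-0.35 to 0.20) in ATRX-/-.

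The LTRs took few reads. The 26 LTR sequences had 136 reads in wildtype, 277 in DAXX-/- and 212 in ATRX-/-, or 9.73, 24.7 and 15.2 CPM. Their sum rose by 1.34 (1.04 to 1.65) in DAXX-/-, while in ATRX-/- the log2 fold of 0.64 (0.32 to 0.96) stayed inside 2-fold. After thinning every library to equal depth, the DAXX-/- value was 1.31 (0.989 to 1.64) and did not pass the rule. Most of the added reads fell on a single sequence, RLTR1IAP_MM. It is a 351-base mouse LTR with 17 reads in wildtype, 158 in DAXX-/- and 107 in ATRX-/-, or 1.22, 14.1 and 7.65 CPM. DAXX-/- was highest and wildtype far below both knockouts. RLTR1IAP_MM rose by a log2 fold of 3.53 (2.81 to 4.35) in DAXX-/- and 2.65 (1.91 to 3.49) in ATRX-/-, the highest value of any repeat tested in each comparison.

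Without RLTR1IAP_MM the other 25 LTRs had 119 reads in wildtype, 119 in DAXX-/- and 105 in ATRX-/-. Their log2 folds of 0.32 (-0.06 to 0.70) and -0.18 (-0.57 to 0.21) include 0, and in ATRX-/- the sign turned. IAPLTR1_Mm had 11, 23 and 13 reads, with log2 folds of 1.38 (0.29 to 2.57) and 0.24 (-1.03 to 1.54). IAPLTR1a_MM, the LTR named like the internal sequence that rose, had 20, 11 and 12 reads and log2 folds of -0.55 (-1.75 to 0.58) and -0.74 (-1.90 to 0.37). The 5 LTRs of the second type, named LTR2, had 57, 51 and 51 reads together, with log2 folds of 0.16 (-0.42 to 0.73) and -0.16 (-0.74 to 0.41). The LTRs of the IAPEY sequences had 23, 31 and 25 reads, and their internal sequences 156, 231 and 172.

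IAPA_MM, which its name puts in neither class, was higher in both knockouts and passed the rule in DAXX-/- alone. It had 153 reads in wildtype, 318 in DAXX-/- and 316 in ATRX-/-, or 10.9, 28.3 and 22.6 CPM. IAPA_MM rose by 1.37 (1.09 to 1.66) in DAXX-/-. In ATRX-/- its log2 fold of 1.05 (0.76 to 1.33) did not lie wholly beyond 2-fold. Per kilobase it was the densest IAP sequence in every library, at 32.8, 84.8 and 67.6 RPKM, above IAPEZI at 18.1, 67.8 and 46.5. RLTR1IAP_MM stood at 3.46, 40.1 and 21.8 on that scale. Per kilobase, RLTR1IAP_MM had 0.106 of the level of IAPA_MM in wildtype, 0.473 in DAXX-/- and 0.322 in ATRX-/-. IAP-d, of 6542 bases and also unassigned, had 19, 14 and 19 reads.

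Relative to the sum of IAPEZI and IAPLTR1a_I_MM, RLTR1IAP_MM gained and IAPA_MM did not. The ratio of RLTR1IAP_MM to that sum changed by 1.70 (0.97 to 2.52) on the log2 scale in DAXX-/- and 1.35 (0.60 to 2.19) in ATRX-/-. For IAPA_MM the same ratio changed by -0.46 (-0.75 to -0.17) and -0.25 (-0.54 to 0.04). These ratios need no scaling between libraries. The RLTR1IAP_MM values rest on 17 reads in wildtype.

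Internal sequences had 23.8 reads per LTR read in wildtype, 32.1 in DAXX-/- and 36.0 in ATRX-/-. Per kilobase of sequence summed over each class the ratio was 3.41, 4.59 and 5.15. The LTR length used here includes rat and hamster LTRs, which had no reads, whereas the internal sequences are all from mouse. These values are therefore higher than they would be for mouse LTRs alone. The ratio was higher than in wildtype by 0.43 (0.12 to 0.74) on the log2 scale in DAXX-/- and 0.60 (0.27 to 0.92) in ATRX-/-, and the knockouts differed by 0.17 (-0.10 to 0.43). Leaving RLTR1IAP_MM out gave 27.2, 74.7 and 72.7 reads. When sequences were classed by length, which moves IAPA_MM to the LTRs, the ratios fell to 11.3, 15.0 and 14.5. In each of these versions the knockouts had more internal reads per LTR read than wildtype. Without IAPEZI and IAPLTR1a_I_MM, a choice made after seeing the data, the order turned. The internal reads were then 232, 276 and 220, beside 136, 277 and 212 LTR reads. A read must fit inside a consensus to be counted on it, so short LTR sequences can lose reads that cross their ends.

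The remaining sequences were near the limit of the depth. In all, 25 IAP sequences had between 1 and 30 reads in their highest library, and 10 had 0 reads in every library. Those 10 were the 8 rat and hamster sequences and the mouse LTRs LTRIAPEY and IAPLTR4. A count of 0 allows up to 0.215 CPM in wildtype, 0.267 in DAXX-/- and 0.214 in ATRX-/- (3 counts per library, counting error only). Of the 25, 13 were tested in DAXX-/- and 10 in ATRX-/-, and the interval included 0 for 12 and 10 of them. Their intervals were 1.82 to 3.05 log2 units wide in DAXX-/- and 1.90 to 3.38 in ATRX-/-. At this depth changes of 2-fold, or well above it, could go uncalled for them, as with IAPLTR1_Mm at a log2 fold of 1.38 in DAXX-/-. IAPLTR1_Mm in DAXX-/- was the member whose interval left out 0.

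**Figure D3:**
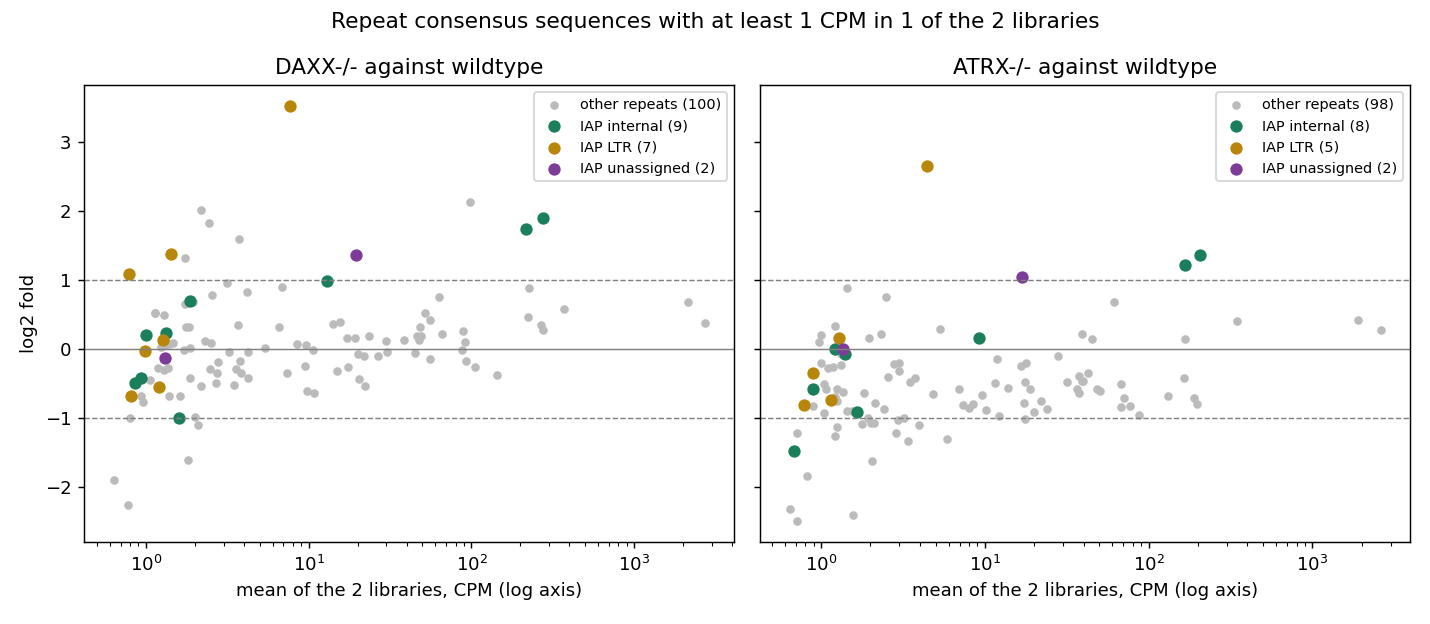
Log2 fold against wildtype (vertical axis) and mean level of the 2 libraries in CPM (horizontal log axis) for every repeat sequence with at least 1 CPM in 1 of them, with IAP sequences coloured by class. RLTR1IAP_MM is the highest point in each panel, and IAPEZI and IAPLTR1a_I_MM lie above 2-fold where the repeats to their right lie inside it, while most IAP sequences lie at the left among the other repeats.

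The knockouts were also set against each other. IAP reads were lower in ATRX-/- than in DAXX-/- by a log2 fold of -0.53 (-0.58 to -0.49), with -0.54 (-0.58 to -0.49) for internal sequences and -0.70 (-0.97 to -0.44) for LTRs. By the rule, 0 of 13 IAP sequences tested rose or fell, beside 0.0% of all repeats that rose and 1.85% that fell, and 0.804% and 0.332% of genes. Among repeats other than IAP 0.0% rose and 2.11% fell. IAPEZI differed by -0.55 (-0.61 to -0.49), IAPLTR1a_I_MM by -0.52 (-0.59 to -0.45), RLTR1IAP_MM by -0.88 (-1.25 to -0.52), IAPA_MM by -0.33 (-0.56 to -0.10) and IAPEY4_I by -0.82 (-1.15 to -0.50). Each of these 5 was lower in ATRX-/- beyond counting error, and the intervals of RLTR1IAP_MM and IAPEY4_I reach past 2-fold. Repeats in general were lower there too, with a median of -0.63 over the 108 tested. Against the reads of all other repeats, IAP reads were lower in ATRX-/- by -0.19 (-0.24 to -0.15).

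IAP sequences were compared with other repeats through the ratio of their reads within each library. There were 0.0372 IAP reads per read of any other repeat in wildtype, 0.0924 in DAXX-/- and 0.0809 in ATRX-/-. That ratio was higher than in wildtype by 1.31 (1.26 to 1.37) on the log2 scale in DAXX-/- and 1.12 (1.06 to 1.18) in ATRX-/-. Against the early transposons ETn and MusD, which are other ERV2 elements and the most abundant of these groups, it was higher by 1.33 (1.27 to 1.39) and 0.90 (0.84 to 0.96). Against sequences named ERVK it was higher by 1.31 (1.07 to 1.55) and 1.54 (1.28 to 1.80). Against sequences related to murine leukaemia virus, by a name pattern that also takes other RLTR elements, it was -0.01 (-0.15 to 0.12) in DAXX-/- and 1.21 (1.05 to 1.37) in ATRX-/-. The leukaemia virus-like sum itself rose by 1.75 (1.63 to 1.87) in DAXX-/- and had a log2 fold of -0.01 (-0.15 to 0.14) in ATRX-/-. The ERVK sum itself had log2 folds of 0.43 (0.19 to 0.66) in DAXX-/- and -0.33 (-0.59 to -0.08) in ATRX-/-. For ETn and MusD they were 0.41 (0.39 to 0.43) and 0.30 (0.28 to 0.32). These intervals compare libraries, and with 1 clone a genotype they are no test of genotype.

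**Figure D4:**
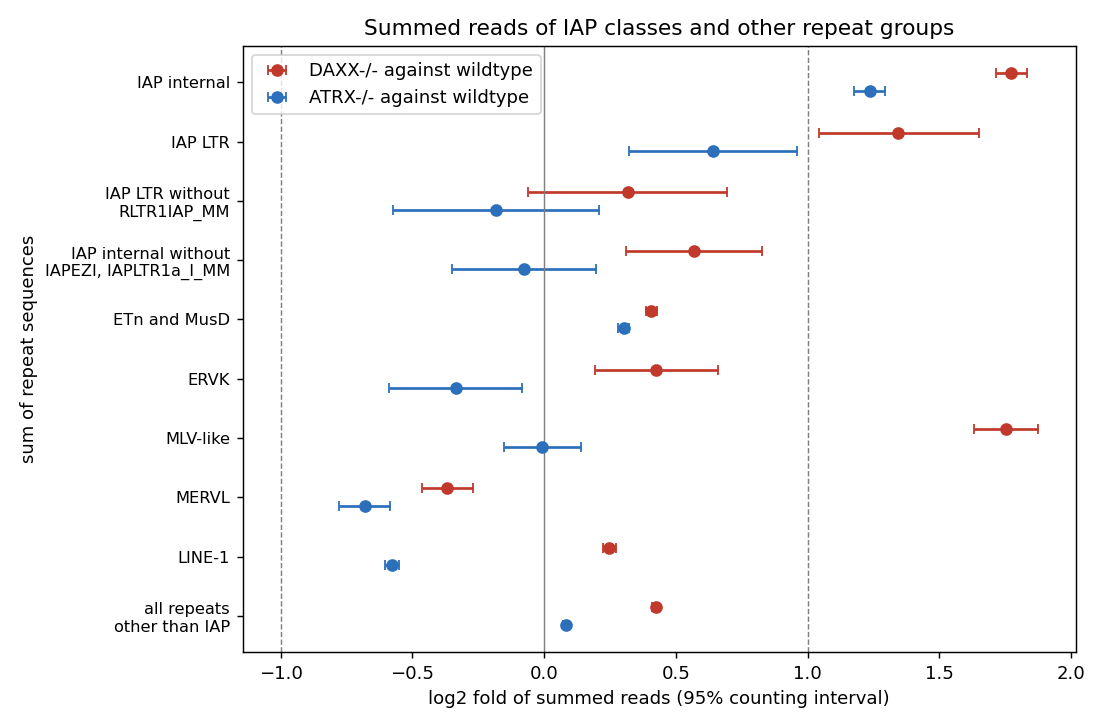
Log2 fold against wildtype of summed reads, with 95% counting intervals, for IAP classes and for other repeat groups; dashed lines mark 2-fold. IAP internal sequences lie beyond 2-fold in both knockouts and murine leukaemia virus-like sequences (MLV-like) only in DAXX-/-; without the named sequences the IAP sums lie inside 2-fold.

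Genes linked to the silencing or restriction of IAPs were taken from a list of 53 names, of which 51 were in the tables and 51 were tested. The other 2 names are older symbols of listed genes. Among those listed, Tet1, Tet2, Tet3 and Kdm4c act in the removal of methylation, so the list medians are not of silencers alone. In DAXX-/- 2 fell and 0 rose, with a median of -0.04, and in ATRX-/- 3 fell, Atrx among them, and 0 rose, with a median of -0.14. Over all genes tested 1.9% fell in DAXX-/- and 1.29% in ATRX-/-, with medians of -0.08 and -0.05. Trim28 (chromosome 7, 12999114 to 13031035), the corepressor that KRAB zinc finger proteins recruit, had 24359, 18986 and 18023 reads and log2 folds of -0.04 (-0.07 to -0.02) and -0.44 (-0.46 to -0.41). Setdb1 (chromosome 3, 95323525 to 95357202), which methylates lysine 9 of histone H3, had 2132, 1703 and 1747 reads and log2 folds of -0.01 (-0.10 to 0.09) and -0.29 (-0.38 to -0.20). Dnmt1 (chromosome 9, 20907209 to 20959888), the maintenance DNA methyltransferase, had 5284, 4890 and 5386 reads and log2 folds of 0.21 (0.15 to 0.26) and 0.03 (-0.03 to 0.08). These 3 core silencing genes thus stayed well inside 2-fold in both knockouts. Atf7ip had the highest log2 fold of the list in each knockout, at 0.91 (0.81 to 1.02) in DAXX-/- and 0.86 (0.76 to 0.96) in ATRX-/-. Neither value passed the rule.

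Apart from Atrx, 3 members of the list fell in at least 1 knockout. Dnmt3l (chromosome 10, 78041947 to 78063622), a cofactor of de novo DNA methylation, had 905 reads in wildtype, 195 in DAXX-/- and 411 in ATRX-/-. It fell by 1.90 (-2.13 to -1.67) on the log2 scale in DAXX-/-, while its log2 fold of -1.14 (-1.31 to -0.97) in ATRX-/- did not pass the rule. Dnmt3b (chromosome 2, 153649450 to 153687730), a de novo DNA methyltransferase, had 1347, 922 and 606 reads. It fell by 1.15 (-1.29 to -1.01) in ATRX-/- and had a log2 fold of -0.23 (-0.35 to -0.11) in DAXX-/-. Its call in ATRX-/- was lost with TMM library sizes, at -1.08 (-1.23 to -0.94). Tex19.1 (chromosome 11, 121146143 to 121148319), a germ cell gene that restrains retrotransposons, had 1036, 221 and 355 reads. It fell by 1.91 (-2.13 to -1.70) in DAXX-/- and by 1.55 (-1.72 to -1.37) in ATRX-/-. The part of these genes in the IAP values was not tested.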

How the data were processed

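The values are read counts as deposited by the authors, not normalised, in 1 table per library with the layout of SAMtools idxstats. The submitters' processing notes name the aligner Bowtie 1.1.2, SAMtools, and build GRCm38.p4. How reads were aligned, and whether by strand, is not given in the sources used here. Among transcript pairs of identical sequence with at least 20 reads (GENCODE M21), 1 of 34, 0 of 31 and 2 of 32 had equal counts (wildtype, DAXX-/-, ATRX-/-). The chi-square per degree of freedom was 1.05, 0.668 and 0.986. Random placement of single reads gives 1 on average, so wildtype and ATRX-/- were close to that value and DAXX-/- was below it. Sequences that resemble each other may therefore exchange reads. This may hold for IAP consensus sequences too, but how alike they are was not examined. Reads that match no consensus closely are not counted.

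Repeat counts were scaled by transcript-row totals. Transcripts were summed to 24006 gene symbols. Folds carry exact conditional binomial (Clopper-Pearson) 95% intervals (scipy 1.17.1), and ratios conditional odds-ratio intervals, or normal ones where counts were large. These cover counting error only, since reads without molecular identifiers are not independent molecules. The calling step was tested on simulated Poisson counts only. These held no variation between clones and no exchange of reads, so false calls from those sources could not show. With 3 libraries and 0 residual degrees of freedom no p-value was computed.

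Alternatives were TMM (edgeR 4.0.16) and DESeq2 1.42.0 size factors, other totals, thinning, filters, a 1.5-fold rule and left-out members. Every member with at least 100 reads in a library was described in full, and genes of the silencing list were described if they passed the rule or were Atrx, Daxx, Trim28, Setdb1 or Dnmt1. Atf7ip was added as the list gene with the highest log2 fold. The members and lists were chosen with earlier results of these data known. Consensus sequences were not used here, so none is printed.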

Additional observations from a re-analysis of the deposited data

How the results depend on the processing

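Of 135 alternative values, 118 were taken as unchanged. Folds and ratios among them kept their direction and side of the 2-fold rule or moved by less than counting error. The rest were counts of sequences called, all taken as unchanged, also where the 1.5-fold rule raised them. Many of these counts were 0 under every setting. Over 4 other scalings and thinning, the IAP total stayed between 1.73 and 1.83 (log2) in DAXX-/- and between 1.20 and 1.27 in ATRX-/-. The LTR sum in DAXX-/- lost its call with thinned counts, at 1.31. Leaving out the sequence with most reads ended the call of the IAP total in ATRX-/-, at 1.06 without IAPEZI, and that of the LTR sum in DAXX-/-, at 0.32 without RLTR1IAP_MM. The LTR sum in ATRX-/- became -0.18 without it, and 2.65 (past the rule) when only sequences with at least 100 reads were kept, which leaves RLTR1IAP_MM alone. The following were chosen after seeing the data. Without IAPEZI and IAPLTR1a_I_MM, the internal sum was 0.57 in DAXX-/- and -0.077 (-0.35 to 0.20) in ATRX-/-. Without these, IAPA_MM and RLTR1IAP_MM, the IAP total was 0.46 in DAXX-/- and -0.11 (-0.32 to 0.11) in ATRX-/-. Both ATRX-/- intervals include 0. The sequences left out were picked for being high in the knockouts, so lower values were built in.

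The internal to LTR ratio of 23.8, 32.1 and 36.0 (wildtype, DAXX-/-, ATRX-/-) became 11.96, 14.5 and 16.4 without IAPEZI, 74.7 and 72.7 in the knockouts without RLTR1IAP_MM, and 11.3, 15.0 and 14.5 by length classes. The counts of IAP sequences that rose stayed at 4 and 3, except 5 and 4 with a 1.5-fold rule. Among the listed genes, Dnmt3b in ATRX-/- lost its call under 3 other scalings and the feeder gene Thy1 in DAXX-/- under 2. No paired analysis was possible because each genotype has 1 library. Leaving out a replicate could not be run for the same reason.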
